A study of Mus musculus with 3 samples.

Results

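The genes described here are 10 vascular genes, Aplnr, Emcn, Cdh5, Tek, Tie1, Pecam1, Ldb2, Tmem255a, Esam and Egfl7, of 19938 genes named on the array, in cells sorted from single ureteric buds of the mouse. They were selected on their deposited signals, as vascular genes whose values differed strongly between the buds, so the differences below are a description of these arrays and no test of them is given. The series holds 3 arrays of 1 group. Each array measured RNA from 1 ureteric bud of a CD-1 mouse embryo at 10.5 dpc (Theiler stage 18, sex given as unknown) that carried the transgene Tg(Hoxb7-EGFP)33Cos, a fluorescent reporter under control of Hoxb7 regulatory DNA that marks the nephric duct and the bud growing from it. Buds were microdissected, treated with trypsin and sorted by fluorescence, and their RNA went through 1 round of amplification before biotin labelling. Array numbers 1 to 3 follow the replicate numbers in the sample titles and carry no order. All 10 genes were found, each with 1 probe set that names no other gene.

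Endothelial cells line blood vessels and are held together by their own cadherin and immunoglobulin-family adhesion molecules. The angiopoietin receptors of the TIE family and the apelin receptor act on their surface in vessel growth and remodelling, and ETS transcription factors are known regulators of many endothelial genes. Vessels enter the early kidney as the bud grows and branches, and vessel cells lie close to the bud epithelium. Not all of the 10 encode surface proteins: Ldb2 encodes a nuclear cofactor of LIM-domain transcription factors and Egfl7 a secreted protein.

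All 10 genes had their lowest signal on array 2, and 8 of them their highest on array 3 with array 1 in between. The difference between the highest and the lowest array, called the range here, was over 1 log2 unit in 6 genes and ran from 0.42 for Egfl7 to 3.41 for Tmem255a, with a median of 2.00. Of all 19938 genes, 10.6% had array 2 lowest, 2.37% had a range over 1 log2, 3.0% had the order array 2, array 1, array 3, and 0.421% had both that order and such a range, while 0.953% had array 2 lowest with such a range, as 6 of the 10 did. The rule that chose the genes used these differences, so nothing is read from the counts. Each array is 1 bud, and with bulk RNA fewer cells of a type and less RNA per cell cannot be told apart. The table gave 1 identical value on all 3 arrays for 51.7% of genes and a value shared by exactly 2 arrays for another 5717 genes. Of the 10 genes, 0 shared a value between arrays, which their choice by differing values nearly requires.

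The 3 receptors among the 10 are the apelin receptor and the TIE pair. Aplnr, the G-protein-coupled receptor for apelin, had signals of 9.32, 7.21 and 10.23 log2 on arrays 1, 2 and 3 (mean 8.92 ± 1.55, SD, n = 3). Array 3 was the highest and array 2 the lowest, 8.13-fold apart on the linear scale. Tek, the angiopoietin receptor also called TIE2, had signals of 6.69, 5.67 and 7.34 log2 (6.57 ± 0.84), in the same order, with array 3 3.18-fold over array 2. Tie1, its relative and partner at the membrane, had signals of 6.15, 5.73 and 6.09 log2 (5.99 ± 0.23), a range of 0.43 that fell to 0.24 when arrays were centred on ribosomal protein genes. Arrays 1 and 3 lay close together above array 2, and which of them was higher depended on the scaling: array 3 minus array 1 was -0.06 log2 in the deposited values and 0.10 after arrays were centred on bud genes.

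Of the adhesion genes, Cdh5 encodes VE-cadherin, the cadherin of endothelial junctions. It had signals of 8.22, 5.89 and 8.07 log2 on arrays 1, 2 and 3 (mean 7.39 ± 1.30, SD, n = 3), a range of 2.32 log2 or 5.00-fold. Arrays 1 and 3 were both high, and their difference was -0.15 log2 for array 3 minus array 1 as deposited but 0.02 after centring on bud genes. Pecam1, the immunoglobulin-family adhesion molecule CD31, had signals of 6.32, 5.86 and 6.62 log2 (6.27 ± 0.38), with array 3 1.69-fold over array 2. Esam, an immunoglobulin-family protein of endothelial tight junctions, had signals of 5.97, 5.36 and 6.02 log2 (5.78 ± 0.37), so that arrays 1 and 3 were nearly level. Array 2 was lower by 0.66, but there Esam lay under the background level of 5.45 log2 (the 95th percentile of olfactory receptor probe sets) and its mean was not above background (limma, adjusted p = 0.0969), so the difference has no measured low end. Emcn, the endothelial sialomucin endomucin, had signals of 8.37, 6.73 and 9.55 log2 (8.22 ± 1.42), which put array 3 7.11-fold over array 2.

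The other genes were the secreted factor, the nuclear cofactor and a membrane protein of little-known function. Egfl7 had signals of 7.0, 6.85 and 7.27 log2 on arrays 1, 2 and 3 (mean 7.04 ± 0.21, SD, n = 3), and its range of 0.42 log2 was the smallest of the 10. Array 2 was its lowest array in the deposited values by 0.15 log2 against array 1, but array 1 was the lower one by 0.04 when arrays were centred on ribosomal protein genes (-0.04 log2 for array 1 minus array 2). Ldb2 had signals of 7.68, 6.38 and 8.83 log2 (7.63 ± 1.23), and array 3 stood 5.49-fold over array 2. Tmem255a, which encodes a transmembrane protein, had signals of 8.64, 5.87 and 9.28 log2 (7.93 ± 1.81). Its range corresponded to 10.6-fold, the widest of the 10, and both high arrays stood well apart from array 2. On array 2 Tmem255a lay 0.42 log2 over the background level, so this fold has a low end near background.

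**Figure D1:**
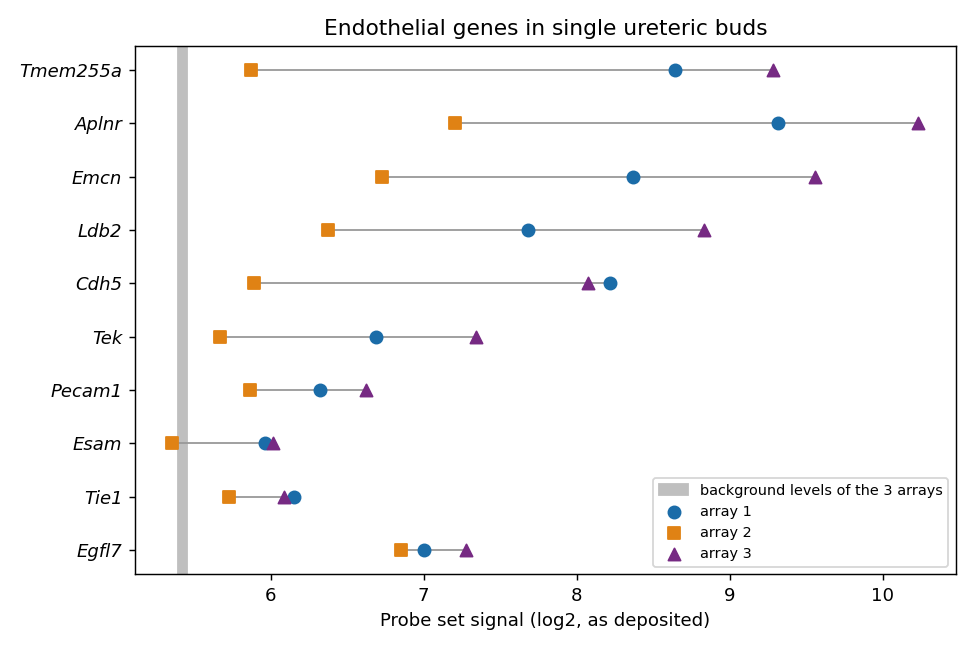
Probe set signal (log2, as deposited) of the 10 vascular genes on each array, sorted by the range between arrays; the grey band spans the background levels of the 3 arrays, and lines join each gene's lowest and highest array. The array 2 marker is leftmost for all 10 genes, and the range shrinks from 3.41 log2 for Tmem255a to 0.42 for Egfl7.

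Signals were also set against a background level, the 95th percentile of 1035 olfactory receptor probe sets, which was 5.40, 5.45 and 5.41 log2 on arrays 1, 2 and 3. By limma's moderated one-sided test with Benjamini-Hochberg adjustment over all genes, 9 of the 10 had a mean above background, where 53.0% of all genes did. The adjusted p ran from 0.000195 for Egfl7 to 0.0374 for Tek among those 9, and Esam missed the threshold with 0.0969. The genes were chosen on their signals on these same arrays, so nothing is read from the count or from these p-values. On array 3 all 10 genes lay over the level, by 0.61 (Esam) to 4.83 log2 (Aplnr), and 8 lay over it by more than 1 log2. On array 1 all 10 lay over it as well, by 0.57 to 3.92 log2, 7 of them by more than 1 log2. On array 2 the count was 9, with Esam at -0.09 log2 against the level, and 3 genes (Aplnr, Emcn and Egfl7) were more than 1 log2 over it. Cdh5, Tek, Tie1, Pecam1 and Tmem255a lay 0.22 (Tek) to 0.44 log2 (Cdh5) over it there, under that array's 99th percentile of 6.10 log2. Their fold differences from array 2 therefore have a low end near background. At the 99th percentile of olfactory receptors Tek, Tie1 and Pecam1 were no longer called (limma, adjusted p of 0.205, 1 and 0.279), and 6 genes were left.

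How closely the 10 genes moved together was described in several ways, with 3 arrays as the only points. Over the 8 genes with array 1 in the middle, array 1 lay 34.5% (Egfl7) to 92.1% (Esam) of the way from array 2 to array 3, with a median of 60.7%. Neither end of this spread is firm. Esam lay under the background level on array 2. For Egfl7, array 1 minus array 2 was 0.15 log2 as deposited but -0.04 with arrays centred on ribosomal protein genes. Tek, Pecam1 and Emcn sat near that median, at 60.7%, 60.7% and 58.0%, while Ldb2 was at 53.1%, Aplnr at 69.8% and Tmem255a at 81.2%. After each gene's mean was subtracted, the average of the 10 was 0.26 ± 0.29 log2 on array 1, -1.02 ± 0.67 on array 2 and 0.76 ± 0.51 on array 3 (SD over the 10 genes, which are not replicates). Tek lay closest to that average profile, at a root mean square difference of 0.11 log2 over the arrays, and Tmem255a farthest, at 0.74.

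With 3 arrays there are 2 independent directions in which a gene can vary, so the share of the squared deviations along the main one cannot fall under 50%. It was 97.0% for the 10 genes, and its weights were 0.21, -0.79 and 0.58 on arrays 1, 2 and 3. The same share was 93.5% for the 64 other endothelial genes described next, whose weights of -0.0044, -0.71 and 0.71 left array 1 almost no part. It was 57.3% for the 473 genes with a range over 1 log2, and 54.7% for the 9627 genes that varied at all. The choice of the 10 genes by their differences fixes part of their value, which is given with no test. Deviations were not scaled per gene, so each share is set mostly by the genes with the widest ranges. A range over 1 log2 was found in 6 of the 10 and in 9 of the 64, and 20 of the 64 were identical on all arrays and added nothing. The shares therefore do not say that all 10 or all 64 genes moved together.

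**Figure D2:**
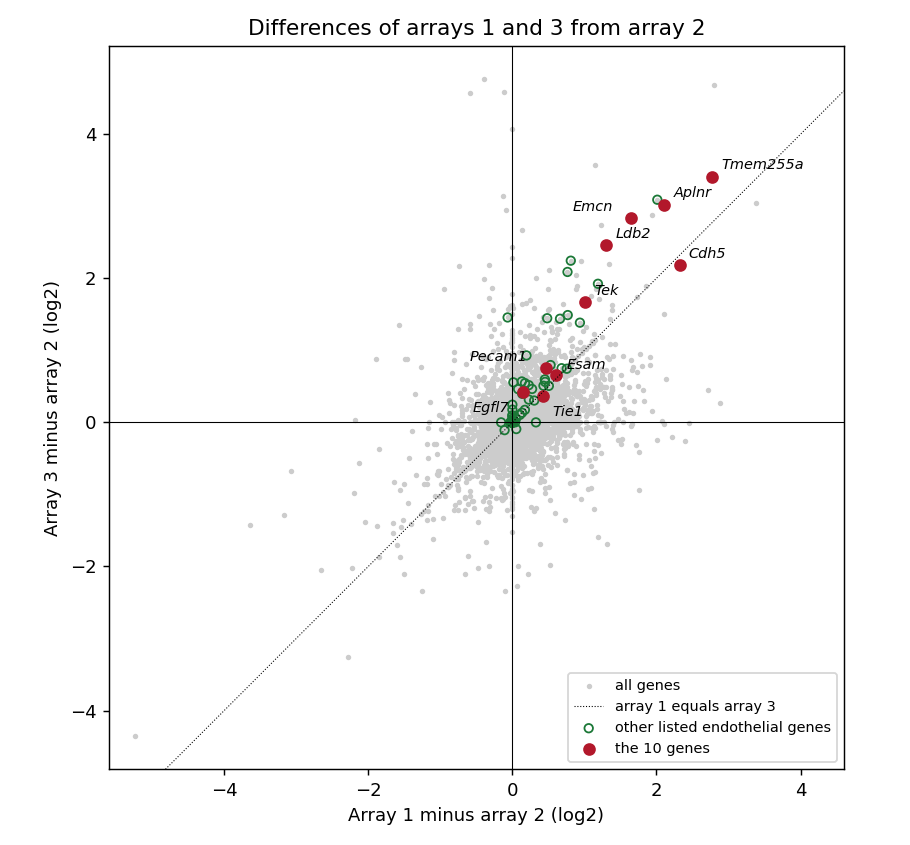
Each point is a gene, with array 1 minus array 2 on the horizontal axis and array 3 minus array 2 on the vertical axis (both log2); filled red points are the 10 vascular genes, open green circles the 64 other listed endothelial genes and the dotted line marks equal signals on arrays 1 and 3. The 10 genes lie in the upper right, where both arrays exceed array 2, from Egfl7 (0.15, 0.42) to Tmem255a (2.77, 3.41), and Cdh5 and Tie1 lie just under the dotted line.

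Beside the 10 genes, 64 other endothelial genes from 3 lists (receptors, adhesion and surface proteins, transcription factors) were all measured. Array 2 was the lowest array in 30 of the 64 (46.9%, against 10.6% of all genes), the order array 2, array 1, array 3 held in 23 (35.9%, against 3.0%), and the range was over 1 log2 in 9 (14.1%, against 2.37%). Another 20 had 1 identical value on all arrays. The counts of array 2 lowest and of the order take any difference over 1e-06 log2, also between values under the background level. The shares of all genes beside them do the same. The median range was 0.14 log2 over the 64 and 2.00 over the 10. Array 3 minus array 2 had a median of 0.09 log2 over the 64, 1.92 over the 10 and 0 over all genes. Of the 64, 44 (68.8%) were above background by limma, against 53.0% of all genes. Of these 44, 15 had 1 identical value on all arrays. For any gene with 1 identical value, the spread in the test came from the background levels and limma's prior and not from the buds. The same holds for Cx3cr1, Cspg4 and Angpt1, which are not among the 64 and are given with their own lists below.

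The endothelial genes outside the 10 with a range over 1 log2 were receptors, surface proteins and transcription factors. Cd34, a surface sialomucin of endothelial and blood progenitor cells, had signals of 7.23, 5.22 and 8.31 log2 on arrays 1, 2 and 3. Its value on array 2 lay under that array's background level and its mean was not above background (limma, adjusted p = 0.0897), so the range of 3.09 has no measured low end. Cd93, a C-type lectin-like surface receptor, had signals of 7.65, 6.83 and 9.08 log2. Hhex, a homeobox factor of early endothelium and endoderm, had signals of 6.90, 6.14 and 8.22 log2, and Lmo2, a LIM-domain factor of blood and vessel development, 7.41, 6.75 and 8.19. In each of these array 2 was the lowest and array 3 the highest, as in 8 of the 10 genes.

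Calcrl, a receptor for calcitonin gene-related peptide and adrenomedullin, had signals of 7.59, 6.40 and 8.32 log2 on arrays 1, 2 and 3, and its accessory protein gene Ramp2 7.05, 6.57 and 8.01. Plxnd1, a semaphorin receptor, had signals of 6.54, 5.60 and 6.99 log2. The VEGF receptor gene Kdr, at 6.32, 5.55 and 7.04 log2, took the same order, whereas the other VEGF receptor genes Flt1 (5.97, 5.83 and 5.97) and Flt4 (5.33, 5.33 and 5.42) had ranges of 0.13 and 0.09. The mean of Kdr missed the threshold for a level above background (limma, adjusted p = 0.0548). Flt4 was not above background either and lay under the level on arrays 1 and 2, so its small range gives no measure of a steady signal. Flt1 was above background and also had array 2 lowest. Adgrl4, an adhesion G-protein-coupled receptor, had signals of 5.04, 5.11 and 6.57 log2 and was not above background (limma, adjusted p = 0.627). Its values on arrays 1 and 2 both lay under the background level and have no order.

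Other named endothelial genes spanned less than 1 log2. Icam2 had signals of 6.42, 5.74 and 6.49 log2 on arrays 1, 2 and 3, Cldn5, the endothelial claudin, 6.26, 6.08 and 6.63, and Ptprb, a phosphatase that acts on TEK, 5.69, 5.69 and 5.93. The ETS factor gene Erg had signals of 6.02, 5.56 and 6.13 log2 and Ets1 6.52, 6.22 and 6.52, while Fli1 (8.13) and Ets2 (6.45) held 1 value on all arrays. Nrp1, a co-receptor also used outside vessels, was at 8.89, 8.86 and 8.86 log2. Vwf, listed at 5.38 log2 on all 3 arrays, was not above background. Among the deposited values, 14486 probe sets were identical on all arrays and took 3554 distinct values, so that Eng, Unc5b and Stab2 carried the same 5.49 log2. An identical value therefore gives no measure of how alike the buds were.

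**Figure D3:**
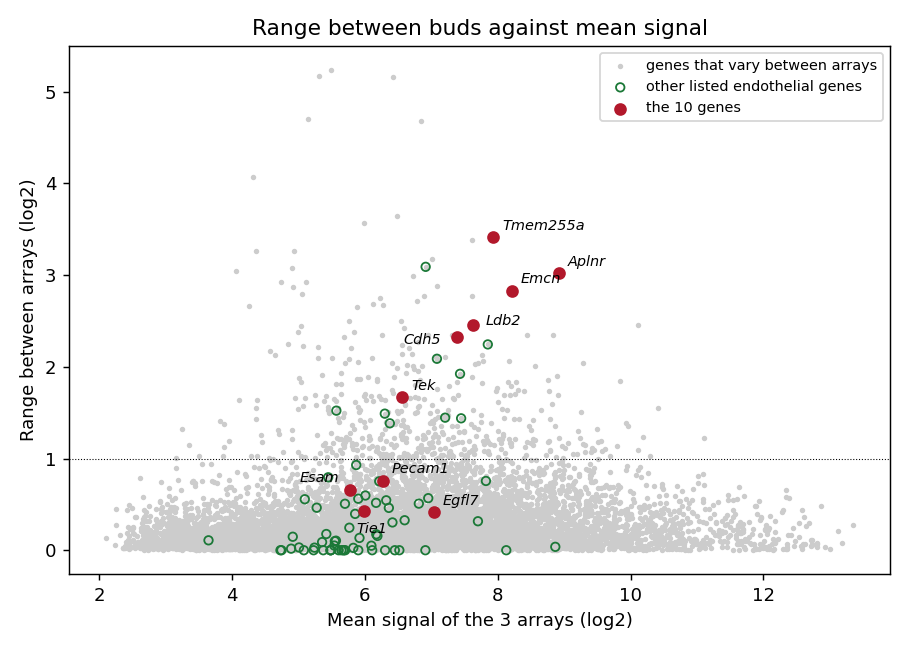
The range between arrays (log2) against the mean signal of the 3 arrays (log2) for the 9627 genes that vary between arrays, with the 10 vascular genes in red and the 64 other listed endothelial genes as open green circles; the dotted line is a range of 1 log2. Tmem255a, Aplnr, Emcn, Ldb2, Cdh5 and Tek lie above the line, and Pecam1, Esam, Tie1 and Egfl7 below it.

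Ligand genes for these receptors had small ranges. Apln, the apelin gene, had signals of 6.11, 6.15 and 6.11 log2 on arrays 1, 2 and 3, and Apela, whose product also binds the apelin receptor, was at 3.61 on all arrays. The TEK ligand genes Angpt1, at 7.35 log2 on all arrays, Angpt2, at 4.65, 4.85 and 4.65, and Angpt4, at 5.08, 5.10 and 5.08, had ranges of at most 0.20. Apln and Angpt1 were the 2 of these 5 above background by limma (53.0% of all genes). Array 2 was the lowest array in 0 of the 5, against 10.6% of all genes. With 5 genes, 2 of them identical on all arrays, nothing is read from that count.

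Among the growth factor ligands of vessels, 3 of 8 were above background, against 53.0% of all genes. Vegfa, the main ligand of KDR, had signals of 7.31, 6.88 and 6.88 log2 on arrays 1, 2 and 3, and Efnb2, an ephrin of arteries and of many epithelia, 9.87, 9.46 and 9.46, both highest on array 1. Vegfb was at 6.99, 6.96 and 6.99 log2. Vegfc (5.27, 5.27 and 5.33), Vegfd (5.21 on all arrays), Pgf (4.71, 4.88 and 4.88), Dll4 (5.21, 5.17 and 5.24) and Sema3e (4.23 on all arrays) were not above background. None of these 8 had a range over 1 log2, which 2.37% of all genes had.

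Genes of other cell types and of the bud itself were read on the same arrays, and their part in the differences of the 10 genes was not tested. The embryonic globin genes were lowest on array 2 as well: Hbb-y had signals of 8.86, 5.48 and 8.52 log2 on arrays 1, 2 and 3, Hba-x 7.98, 5.87 and 7.39 and Hbb-bh1 6.32, 4.42 and 5.32. Unlike 8 of the 10 genes, all 3 globins were highest on array 1. They were the 3 of 12 measured erythroid genes with a range over 1 log2 (2.37% of all genes), and 7 of the others were identical on all arrays (51.7% of all genes). Hbb-bh1 lay under the background level on arrays 2 and 3, so its differences there are not between measured levels. Hbb-y lay close to the level of 5.45 log2 on array 2, so its range has a low end near background. Its mean missed the threshold for a level above background (limma, adjusted p = 0.053). The summed linear signal of the erythroid list was 1190, 518 and 969 on arrays 1, 2 and 3, and that of the 10 vascular genes 2316, 774 and 3852.

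Leukocyte and platelet genes had 4 of 18 members above background, against 53.0% of all genes, and a summed linear signal of 612, 615 and 624 on arrays 1, 2 and 3. Their defining genes Ptprc (4.48 log2), Csf1r (4.56) and Adgre1 (4.10) were identical on all arrays and not above background, whereas Cx3cr1 (6.21 on all arrays) was above it. Mural cell genes, of the pericytes and smooth muscle that coat vessels, gave 2 of 12 above background and summed signals of 479, 456 and 470, with Pdgfrb (4.48), Rgs5 (4.46) and Acta2 (5.14) not above it and Cspg4 (5.80) above it, each identical on all arrays. Metanephric mesenchyme genes gave 5 of 13 and summed signals of 630, 632 and 610, and stromal genes 5 of 14 and summed signals of 575, 560 and 552. None of these 4 lists had a member with a range over 1 log2, a range that 2.37% of all genes had.

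Bud genes were mostly highest on array 1 where they varied. Of the ureteric tip genes 13 of 15 were above background and of the nephric duct and bud genes 17 of 17, against 53.0% of all genes. Array 1 was highest in 6 of the 15 and 11 of the 17, against 12.3% of all genes, and the order array 2, array 1, array 3 was found in 0 of either list, where 3.0% of all genes had it. Ret, the receptor for GDNF, had signals of 8.69, 8.35 and 8.18 log2 on arrays 1, 2 and 3. Its co-receptor gene Gfra1 was at 8.58, 8.22 and 7.85 and the duct factor gene Pax2 at 8.58, 8.15 and 7.92. These 3 were lowest on array 3, where 8 of the 10 vascular genes were highest, but not all bud genes were. Array 2 was lowest in 0 of the 15 tip genes and 4 of the 17 duct and bud genes, against 10.6% of all genes. Among those 4, Krt8 had signals of 10.77, 9.67 and 9.90 log2. Another 6 of the 15 and 2 of the 17 were identical on all arrays (51.7% of all genes). The summed linear signal was 3215, 2668 and 2306 for the tip list and 10384, 8687 and 8175 for the duct and bud list. Ribosomal protein genes, with 19 of 19 above background, had summed signals of 80264, 69876 and 75556, lowest on array 2. The share of these levels in the differences of the vascular genes was not tested, and centring arrays on either set left the median of array 3 minus array 2 over the 10 genes at 1.98 (bud genes) and 1.77 log2 (ribosomal protein genes), against 1.92 as deposited.

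**Figure D4:**
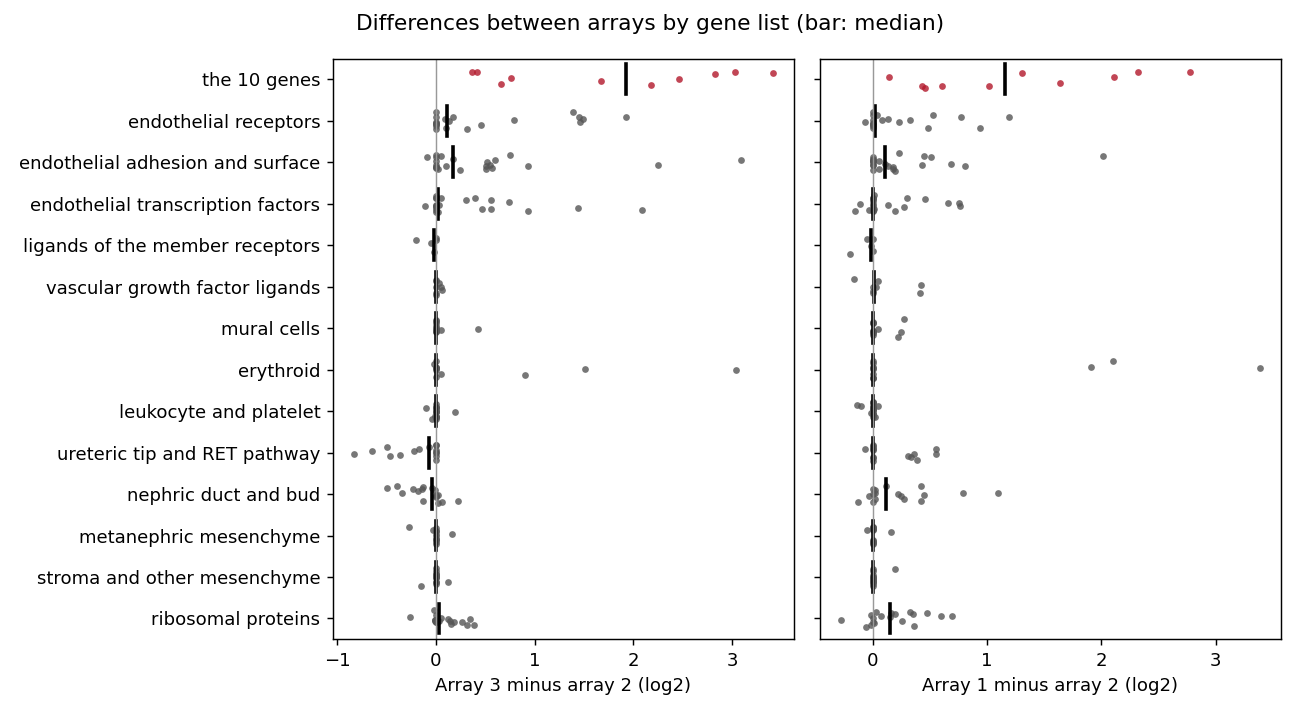
Array 3 minus array 2 (left) and array 1 minus array 2 (right), in log2, for every measured gene of each list; each point is a gene, vertical bars are list medians and points are spread vertically for sight only. The 10 vascular genes have medians of 1.92 and 1.16 log2, 3 erythroid points (the embryonic globins) stand far to the right, and tip genes lie at or left of 0 on the left panel.

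Genes linked to embryonic sex also differed between the arrays, and their part was not tested. Xist, the RNA of the inactive X chromosome, had signals of 7.14, 4.35 and 9.04 log2 on arrays 1, 2 and 3, which is the order of 8 of the 10 genes. On array 2 Xist lay under the background level of 5.45 log2, so its differences from that array have no measured low end. The Y-linked genes Eif2s3y (6.96, 7.54 and 6.92 log2), Uty (6.32, 6.57 and 6.26) and Sry (6.43, 6.78 and 6.07) were highest on array 2, and Kdm5d was at 6.17 on all arrays. These genes were chosen after their values were seen.

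In all, 84 genes had the order array 2, array 1, array 3 with a range over 1 log2. Of these, 5 were among the 10 vascular genes (Aplnr, Emcn, Tek, Ldb2 and Tmem255a), 8 were other listed endothelial genes and 71 were in neither. Outside the lists, and named after their values were seen, Gimap6, a GTPase gene of the GIMAP family, had signals of 7.43, 5.49 and 8.36 log2, Klhl4 6.14, 4.91 and 7.65, Rasgrp3, an exchange factor for RAS-family GTPases, 6.84, 6.33 and 8.44, Msn, the moesin gene, 7.62, 6.74 and 8.78, and Vim, the vimentin gene, 8.47, 7.97 and 9.82. Klhl4 lay under the background level on array 2, so its range has no measured low end. Gimap6 lay close to that level of 5.45 log2 there, so its range has a low end near background.

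The 10 genes nearest to the average profile of the vascular genes were taken from all others with a mean over the background level, by the root mean square difference of centred values over the 3 arrays. Commd6 was the nearest, at 0.03 log2, with signals of 8.50, 7.30 and 9.01 log2 on arrays 1, 2 and 3. Lix1l (0.08 log2), Clic1 (0.08), Calcrl (0.10), Snord14e (0.14), Plxnd1 (0.17), Oser1 (0.18), Surf4 (0.19), Ctla2a (0.19) and Gimap4 (0.21) followed, and their ranges ran from 1.32 log2 for Surf4 to 2.20 for Ctla2a. Calcrl and Plxnd1 were the 2 of these on the endothelial lists. Among the vascular genes themselves only Tek, at 0.11 log2, was as near as the fifth of these genes. Ctla2a and Gimap4 lay under the background level on array 2, so their ranges have no measured low end.

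The sequences before the transcription starts of the vascular genes are shown because ETS factors are known to act on endothelial promoters. The RefSeq promoter table (GRCm38.p6) held 5 of the 10 genes, Emcn, Tek, Tie1, Tmem255a and Egfl7, with 7 starts in all, and Aplnr, Cdh5, Pecam1, Ldb2 and Esam are named only. In the 250 bases before each start, AGGAAG, the core of many ETS sites, was searched on both strands (CTTCCT on the other), and matches are in capitals. The window of Emcn was chr3:137340828-137341077 (+ strand), that of Tmem255a chrX:38252482-38252731 (- strand), that of Tie1 chr4:118489850-118490099 (- strand) and that of the first Egfl7 start chr2:26580833-26581082 (+ strand), each printed 5′ to 3′ on the gene's strand. The first pair had ranges of 2.83 and 3.41 log2 between the arrays, the second pair 0.43 and 0.42.
Emcn: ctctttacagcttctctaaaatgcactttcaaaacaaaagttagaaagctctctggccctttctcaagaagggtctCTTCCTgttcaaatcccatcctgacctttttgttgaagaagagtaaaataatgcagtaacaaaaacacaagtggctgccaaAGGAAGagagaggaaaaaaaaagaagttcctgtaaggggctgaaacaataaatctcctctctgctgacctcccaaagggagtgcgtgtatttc
Tmem255a: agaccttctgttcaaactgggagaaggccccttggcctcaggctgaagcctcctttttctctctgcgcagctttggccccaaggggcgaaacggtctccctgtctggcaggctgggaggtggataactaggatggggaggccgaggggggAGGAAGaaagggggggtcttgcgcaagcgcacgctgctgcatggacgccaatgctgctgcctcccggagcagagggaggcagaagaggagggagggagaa
Tie1: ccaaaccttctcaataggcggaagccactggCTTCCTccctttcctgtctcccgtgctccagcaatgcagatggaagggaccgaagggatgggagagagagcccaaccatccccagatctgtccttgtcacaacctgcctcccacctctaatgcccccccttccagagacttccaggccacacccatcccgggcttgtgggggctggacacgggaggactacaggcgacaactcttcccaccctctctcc
Egfl7: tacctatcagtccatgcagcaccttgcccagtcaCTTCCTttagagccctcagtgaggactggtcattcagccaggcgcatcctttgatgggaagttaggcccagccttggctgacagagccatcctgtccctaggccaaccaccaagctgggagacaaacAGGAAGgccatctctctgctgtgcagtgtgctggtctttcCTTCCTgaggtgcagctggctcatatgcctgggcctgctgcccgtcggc

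The ETS letters were found in 4 of the 5 genes and in 5 of their 7 windows, against 29.5% of the 32851 windows in the table. Emcn held 2 matches, whose first bases lay 174 and 93 bases before the start, Tmem255a 1 at 100, Tie1 1 at 219 and the first Egfl7 start 3, at 216, 89 and 49 bases. The second Egfl7 start held 1 match, and the windows of Tek and of the third Egfl7 start held 0. The GATA letters AGATAA (9.99% of all windows) and the FOX letters GTAAAC (6.92%) were found in 0 of the 7 windows, and the SOX letters ACAAAG (16.5%) in 2, those of Tek and of the third Egfl7 start. No other motif and no other form of an ETS site was searched, so a window with 0 matches may still hold ETS sites. A match describes letters in a window, in genes with wide and with narrow ranges alike.

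Egfl7 is the host gene of the endothelial microRNA miR-126. Its mature 3p arm, at chr2:26591402-26591423 (+ strand, GRCm38.p6), lies within Egfl7 in RefSeq and is shown 5′ to 3′ with the seed, bases 2 to 8, in capitals.
mmu-miR-126a-3p: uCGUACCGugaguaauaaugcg
The probe set for the Mir126a gene was at 2.92 log2 on all 3 arrays, under the background level, while Egfl7 itself lay 1.40 to 1.87 log2 over it on every array. The labels do not say whether the amplification kept RNA as short as a microRNA.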

How the data were processed

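RNA from 3 single buds was measured on Affymetrix arrays. The authors deposited 1 log2 value per probe set and array, from Affymetrix Expression Console as the submitters' processing notes name it; the log base was inferred from the values (1.69 to 14.15), and no source used here gives the background correction, normalization or summary method. Column medians were 5.47, 5.50 and 5.48, and values were used as deposited. Of 35557 probe sets, 21789 had 1 gene symbol in the platform annotation, 1621 several and 12147 none listed; the single-symbol ones were averaged per gene (19938 genes). Values equal within 1e-06 log2 counted as identical.

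limma 3.58.1 in R 4.3.3 tested whether each gene's mean lay over the background level (adjusted p under 0.05). The fit was first run on simulated data with the same noise for every gene. On these arrays 51.7% of genes had 1 identical value, so that run does not bear on the calls given here. Nothing says the buds came from separate litters, so p-values measure the spread between these arrays alone, and precision is limited by having 3 arrays. Differences between arrays have no test. The summed linear signal of a list is the sum of 2 to the power of each value. The 10 genes and the lists were chosen with earlier results of these data known. Named were all 10 genes, endothelial genes with a range over 1 log2, the ligands, the 10 genes nearest in pattern and, of each list, defining genes among its first 4; Vwf, Eng, Unc5b and Stab2 and the genes marked so in the text were chosen after their values were seen. Of the listed genes, 2 erythroid globins and others without a single-symbol probe set are not analysed here. Alternatives covered scaling, the choice of probe set, the background level, filters and leaving out arrays.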

Additional observations from a re-analysis of the deposited data

How the results depend on the processing

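The count of 9 genes above background was 6 to 10 over 12 alternatives, and 9 to 10 with 1 array left out. Over its alternatives the limma adjusted p ran from 3.41e-48 to 0.205 for Tek, from 9.65e-34 to 0.279 for Pecam1, from 1.48e-22 to 1 for Tie1 and from 8.94e-16 to 1 for Esam. At the 99th percentile of olfactory receptors the means of Tie1 and Esam fell under the level (adjusted p = 1 for both). Esam passed at the 90th percentile (limma, adjusted p = 0.0216), with vomeronasal receptors as background (8.94e-16), without array 1 (0.0467) and without array 2 (0.00168); fits with 2 arrays and those with another background estimated another prior spread. The other 6 genes kept their calls throughout. The count with a range over 1 log2 was 2 without array 2 (Emcn and Ldb2) and 6 without array 1 or array 3, and 8 and 6 at thresholds of 0.5 and 1.5 log2. The order array 2, array 1, array 3 held in 7 to 10 genes over the scalings, and in 6 when neighbouring arrays had to lie over 0.25 log2 apart, a setting added after the data were seen. Centring on ribosomal protein genes moved the median of array 3 minus array 2 over all genes by -0.15 log2 and of array 1 minus array 2 by -0.19, and centring on bud genes moved array 3 minus array 1 by 0.17 and array 1 minus array 2 by -0.11; the range of each of the 10 genes moved by less than its SD, though that of Tie1 went from 0.43 to 0.24 on ribosomal protein genes. Taking the brightest probe set per gene left the signals and calls of the 10 genes as they were, since they have 1 each. No paired analysis was possible because the 3 arrays form 1 group.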
